A study of Rattus norvegicus with 16 samples.

Results

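The 37 rat genes described here encode the enzymes and regulators that handle glutathione, hydrogen peroxide, lipid peroxides and superoxide. They were taken by name from a fixed list of 37 symbols. Each was represented by 1 array probe, the one of highest mean signal where there were several, out of 15162 genes with a named probe. All 37 symbols were found, 34 through 1 probe and 3 (Slc7a11, Gpx4 and Txnrd1) through 2. The tissue was the fat pad beside the epididymis (epididymal white adipose tissue, EWAT), a visceral depot, taken from male rats killed at 30 days of age with free access to food. HFT animals were the offspring of dams that ate a high-fat diet (5.24 kcal per g) through pregnancy and lactation and were given grape seed procyanidin extract (GSPE, a preparation of polyphenols) by mouth at 25 mg per kg body weight in low-fat condensed milk. HF animals were the offspring of dams on that same high-fat diet given the condensed milk alone as vehicle. Both groups therefore share the maternal high-fat diet. The pups of both groups were weaned on day 21 of lactation and then ate what their mothers had eaten, so they received the extract, as labelled, through the dam and not in a dose of their own. The dams had been mated at 11 weeks of age. Each group held 8 animals, and each animal had its own 1-colour Agilent array. Animals are named by group and label number. Which animals were littermates is not stated in the labels, and the tests take all 16 as separate.

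Cells keep reactive oxygen species in check by 2 thiol systems that share NADPH as their source of electrons. Glutathione is built from glutamate, cysteine and glycine, is spent by peroxidases and S-transferases, and is returned to its reduced form by glutathione reductase. Thioredoxin, reduced by thioredoxin reductase, in turn serves the peroxiredoxins. The transcription factor NRF2 (Nfe2l2), which the adaptor KEAP1 marks for degradation, binds antioxidant response elements in the promoters of many of these genes. In white fat the same enzymes meet the lipid peroxides and aldehydes that arise in a tissue packed with stored fat, and plant polyphenols are commonly studied for their effect on this system.

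The levels below are log2 signals relative to the 75th percentile of the same array, so that 0 is that percentile. A level describes 1 probe and is not set against the level of another probe. Differences are HFT minus HF on this log2 scale, with the standard error (SE) of the limma fit across all probes. The 75th percentile itself ran from 753 to 1366 intensity units over the 16 arrays, 68.3% to 73.5% of the probes were well above background on an array, and no spot was saturated. The number of arrays limits the precision. The arrays filled 4 slides, each with 2 HFT animals at positions 3 and 4 and 2 HF animals at positions 1 and 2, so the group cannot be told apart from the position an array had on its slide. The adipocyte marker Adipoq (adiponectin) was at 6.31 to 7.23 in HFT animals and 6.56 to 7.06 in HF animals. Some arrays also carried RNA of other tissue. The epididymal lipocalin Lcn5 was at 3.42 to 4.12 on HFT 23, HFT 28 and HF 8 and at -6.23 to -2.71 on the 10 arrays called high for no such tissue. Lcn10, also an epididymal lipocalin, did the same at 1.67 to 2.11 against -6.30 to -4.29. The other passing epididymal markers did not follow them. Adam7 was at -3.62 to -2.98 on the 3 arrays and -2.88 to -2.06 on the 10, and Spink8, at 1.71 to 1.78 on the 3 arrays, was highest on HF 9, 1 of the 10, at 3.55. The urothelial uroplakin Upk3a was at 2.95 to 4.69 on HFT 22, HFT 24 and HF 35 and at -7.57 to -6.06 on those 10. Over the lists, 4 of 15 epididymal and 4 of 8 urothelial markers passed the filter on dim probes. The median of the passing epididymal markers, relative to the median array, ran from -0.60 to 5.66 in HFT animals and from -0.22 to 5.45 in HF animals. That of the urothelial markers ran from -0.53 to 9.0 in HFT animals and from -0.24 to 8.90 in HF animals. The other epididymal markers, such as Crisp1 and Cst8, were well above background too rarely to pass, and over all 13 measured the median was 3.41 on HFT 28, 1.64 on HF 8 and 1.43 on HFT 23, so only HFT 28 would be called high. These 6 arrays come up again beside the genes they move with. The 10 arrays were not low for every other marker list. Relative to the median array, the smooth muscle marker median was 3.45 on HF 9, and the liver marker median was 3.90 on HF 10 and 3.29 on HFT 36.

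No antioxidant gene differed between HFT and HF fat pads past the threshold. Of the 37 genes, 36 were well above background on all 16 arrays and were tested. The exception was Gclm, the modifier subunit of the enzyme that starts glutathione synthesis: its probe stayed below the well-above-background mark on all 16 arrays, at -9.08 to -8.46 in HFT animals and -9.04 to -8.60 in HF animals, so no difference is given for it. Of the 36, 0 passed an adjusted p of 0.05 in limma, and the smallest adjusted p was 0.999994. Over all probes the share past that threshold was also 0% (0 of 21831). At an unadjusted p under 0.05 limma called 0 of the 36 genes, against 2.35% of all probes, or 514 of 21831. In all 36 genes the HFT and HF values overlapped, and 0% of all probes had groups that did not overlap.

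The differences were small, and the intervals limit how large they can be only if the animals count as separate. The extract was given to the dams and littermates are not known, so the intervals may be too narrow. The differences ran from -0.21 for Sod2 to 0.24 for Gpx3. Of the 36 differences, 24 were above 0 and 12 were below 0, and their median was 0.031. Over all probes 43.9% of differences were above 0 and the median was -0.016. The 95% intervals of 28 genes lay within 0.5 log2 units of 0 and those of all 36 lay within 1 log2 unit, or a 2-fold change, with the lowest bound at -0.61 and the highest at 0.73. The distance from a difference to its 95% bound ran from 0.125 for Sod1 to 0.592 for Gsta4. A p above the threshold does not show that the groups were alike. In simulated data on 21831 probes, the same fit recovered 55.8% of probes changed 1.5-fold and 82.4% of those changed 2-fold. Each run held 200 changed probes, whereas 0 probes passed in the data, so these rates may be too high for a single changed gene. By class the median difference was 0.082 for the NRF2 regulators and targets (4 above 0 of 5), 0.059 for glutathione synthesis and recycling (3 of 4 tested) and 0.059 for the glutathione peroxidases (3 of 5). It was 0.038 for the S-transferases (6 of 7), 0.037 for the thioredoxin and peroxiredoxin genes (7 of 11) and -0.035 for superoxide dismutases and catalase (1 of 4). Single arrays moved these medians. Without HF 8 the median was -0.0058 for the NRF2 genes, -0.0099 for the peroxidases and -0.019 for the thioredoxin genes, and without HF 35 that of the NRF2 genes was 0.18.

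**Figure D1:**
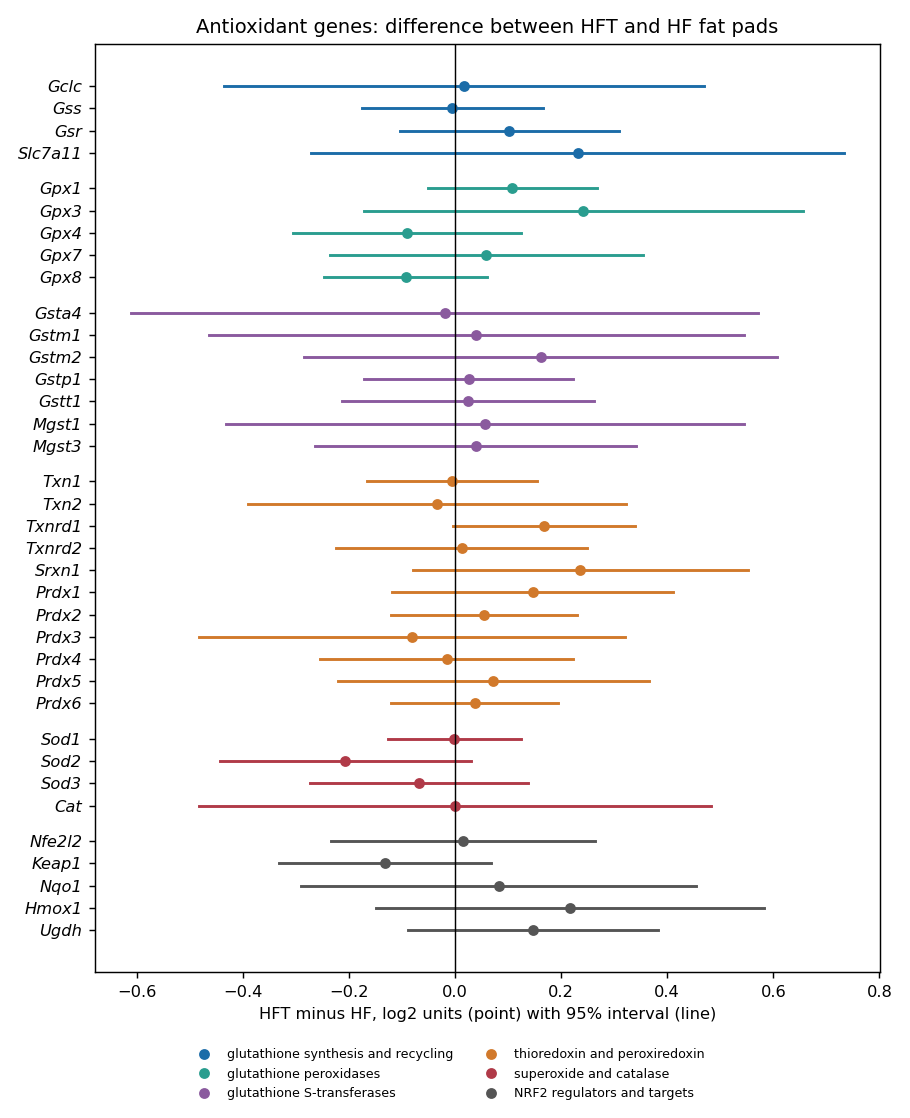
HFT minus HF difference of each of the 36 tested genes in log2 units, grouped by class, with its 95% interval from the limma fit. Every interval includes 0, and the differences run from -0.21 for Sod2 to 0.24 for Gpx3.

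NRF2 acts through promoter elements, so the promoters are described before the values. RefSeq (assembly GRCr8) gave a stretch of 250 bases before to 50 bases after the start of the gene for 31 of the 37 genes. There was none for Prdx6, Gstt1, Sod3, Gsr, Gpx8 and Hmox1. Bases outside this stretch were not searched, so a gene without a match, such as Nqo1 or Gclc, is not shown to lack the element. The core of the antioxidant response element, TGACNNNGC, was searched on both strands. It was in the promoters of 9 of the 31 genes (29.0%), namely Nfe2l2, Gclm, Gstp1, Txnrd1, Prdx1, Prdx4, Prdx5, Sod2 and Ugdh, and in 12.1% of all 33469 promoters of that length. Some genes have several starts, and counted by start, as in that share, it was in 9 of 34 (26.5%). The extended form TGACTCAGC, which also holds the AP-1 site TGACTCA, was in 2 of the 31, Prdx1 and Gstp1, which is 5.88% of the 34 starts, and in 0.415% of all promoters. A match is a description of these letters and not evidence of binding. Shown here are the promoters with the extended form and that of Txnrd1, whose difference had the smallest p of the 36, each on the strand of its gene with the match in capitals. GCTGAGTCA and GCTTTGTCA are the element read on the opposite strand. Counted from the start of the gene, the match begins at -135 in Prdx1 (chr5:135383656-135383955, plus strand), at -61 in Gstp1 (chr1:210769656-210769955, minus strand) and at -78 in Txnrd1 (chr7:22755855-22756154, minus strand). RefSeq lists a further start of Txnrd1, with no match.
Prdx1: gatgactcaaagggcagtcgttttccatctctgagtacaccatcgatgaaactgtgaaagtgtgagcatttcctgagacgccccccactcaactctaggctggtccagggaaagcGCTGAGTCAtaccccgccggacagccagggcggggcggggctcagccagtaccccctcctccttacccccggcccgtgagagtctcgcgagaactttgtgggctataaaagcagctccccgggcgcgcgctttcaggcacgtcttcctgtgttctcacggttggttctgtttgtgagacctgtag
Gstp1: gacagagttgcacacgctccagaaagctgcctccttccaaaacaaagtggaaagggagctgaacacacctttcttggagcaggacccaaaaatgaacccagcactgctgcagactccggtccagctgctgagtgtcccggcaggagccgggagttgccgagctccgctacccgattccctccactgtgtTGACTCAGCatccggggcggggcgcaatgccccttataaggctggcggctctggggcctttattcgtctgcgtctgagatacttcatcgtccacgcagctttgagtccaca
Txnrd1: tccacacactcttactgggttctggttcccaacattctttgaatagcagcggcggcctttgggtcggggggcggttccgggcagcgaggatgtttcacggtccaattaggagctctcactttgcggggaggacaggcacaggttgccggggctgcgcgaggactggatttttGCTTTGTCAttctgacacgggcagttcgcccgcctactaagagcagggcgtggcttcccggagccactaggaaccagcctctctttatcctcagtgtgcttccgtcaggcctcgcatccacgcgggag

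The NRF2 regulators and their classic targets were expressed in every fat pad. The mRNA of Nfe2l2, the transcription factor itself, ranged 1.40, 1.51 and 2.06 (lowest, median, highest) in HFT animals and 1.30, 1.53 and 2.09 in HF animals. HF 35, HFT 24 and HFT 22 held the highest levels, in both groups, and the groups overlapped throughout. The difference was 0.015 (SE 0.12). Keap1, whose product targets NRF2 for degradation, ranged -1.05, -0.72 and -0.45 in HFT animals and -0.85, -0.64 and -0.50 in HF animals, a difference of -0.13 (SE 0.095). HFT 36, HFT 27 and HFT 28 lay below every HF animal, whereas HFT 22 was the highest of all 16. NRF2 is controlled largely through its protein, which an mRNA array does not measure.

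The target genes NQO1 and heme oxygenase 1 stand for the response itself. Nqo1, a quinone reductase, ranged -2.93, -2.49 and -2.11 in HFT animals and -3.20, -2.60 and -1.87 in HF animals, a difference of 0.082 (SE 0.18). The HF animals spanned the wider range, and no HFT animal lay outside it. Hmox1, which breaks heme down to biliverdin, iron and carbon monoxide, ranged -0.60, -0.31 and 0.23 in HFT animals and -0.90, -0.64 and 0.24 in HF animals. HF 9, HF 11, HF 8 and HF 10 lay below every HFT animal, while HF 12 was the highest of all. The difference was 0.22 (SE 0.17, limma adjusted p = 0.999994), and 7 of 8 HFT animals were above the HF mean. Macrophages express Hmox1 strongly, and the 13 macrophage markers measured had differences above 0 in all 13 cases, with a median of 0.32. At a limma unadjusted p under 0.05, 5 of the 13 markers were higher, against 1.13% of all probes. The median of those markers, relative to the median array, ran from -0.0033 to 0.56 in HFT animals and from -0.42 to 0.45 in HF animals, and its part in the Hmox1 values was not tested. In bulk tissue fewer cells of a type and less RNA per cell cannot be told apart. Ugdh, which makes the UDP-glucuronate used to conjugate xenobiotics, differed by 0.15 (SE 0.11), with 7 of 8 HFT animals above the HF mean.

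**Figure D2:**
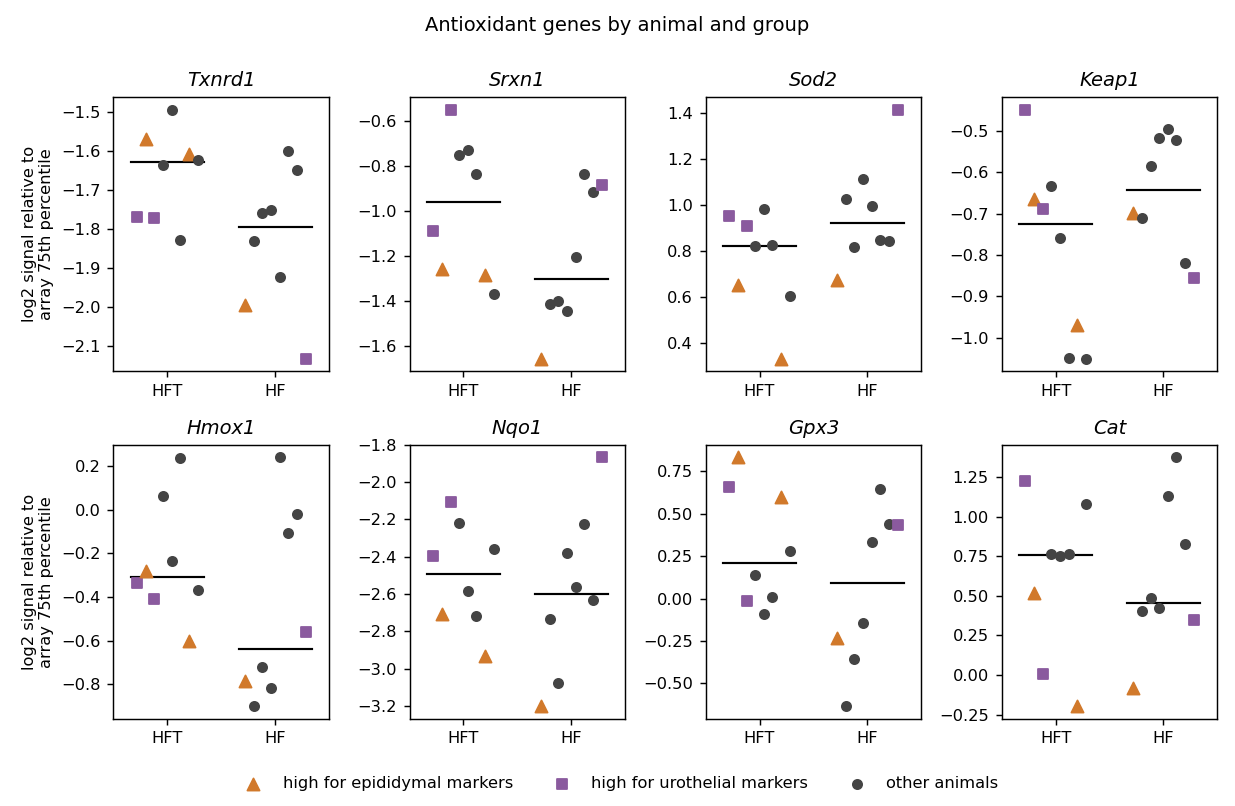
Level of selected antioxidant genes in each animal (log2, relative to the 75th percentile of the array), HFT left and HF right, with the group medians as lines and symbols for other tissue (triangles epididymal, squares urothelial, circles neither). HFT and HF points overlap in every panel, as for Txnrd1 at -1.83 to -1.49 in HFT animals and -2.13 to -1.60 in HF animals.

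Among the genes of glutathione synthesis and recycling, Gclc and Slc7a11 varied widely within both groups. Gclc, the catalytic subunit of glutamate-cysteine ligase, ranged -0.79, -0.35 and 0.57 in HFT animals and -0.52, -0.38 and 0.38 in HF animals. Its values fell into a low set of 10 animals, at -0.79 to -0.36, and a high set of 6 animals, at -0.11 to 0.57, and the high set was exactly the 6 arrays with epididymal or urothelial markers. The difference over all animals was 0.016 (SE 0.21). Slc7a11, the cystine importer that supplies cysteine for glutathione, ranged -6.67, -6.32 and -5.18 in HFT animals and -6.99, -6.51 and -5.22 in HF animals. HFT 24 and HF 35, both high for urothelial markers, stood above the rest, which lay at -5.95 or lower, and the remaining urothelial array, HFT 22, was at -6.47. The Slc7a11 difference was 0.23 (SE 0.24), and 0.049 with another background correction and scaling (normexp and quantile normalization). The other Slc7a11 probe was well above background on 0 of the 16 arrays. Gss, which adds glycine to complete glutathione, differed by -0.0052 (SE 0.081), and Gsr, glutathione reductase, by 0.10 (SE 0.097). For Gsr, 4 of 8 HFT animals lay above every HF animal, while HFT 28 lay below every HF animal.

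The glutathione peroxidases reduce hydrogen peroxide and lipid peroxides at the cost of glutathione. Gpx3, the secreted peroxidase of plasma that adipocytes also make, ranged -0.09, 0.21 and 0.83 in HFT animals and -0.63, 0.09 and 0.65 in HF animals. HFT 23 and HFT 22 were the highest of all and HF 9, HF 10, HF 8 and HF 11 lay below every HFT animal. Its difference of 0.24 (SE 0.20) was the largest of the 36 but carried the interval -0.17 to 0.66. Gpx1, the cytosolic enzyme, differed by 0.11 (SE 0.075), and Gpx4, which protects membranes from lipid peroxidation and thereby from ferroptosis, by -0.091 (SE 0.10). Gpx7, a peroxidase of the endoplasmic reticulum, differed by 0.059 (SE 0.14). Gpx8, of the same compartment, differed by -0.093 (SE 0.073), and all 8 HFT animals were below the HF mean (HFT SD 0.062, HF SD 0.17), although they stayed within the HF range.

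The glutathione S-transferases conjugate glutathione to electrophiles, and 4 of the 7 were among the 8 members of largest spread between animals. Gsta4, which detoxifies the lipid aldehyde 4-hydroxynonenal, ranged 1.42, 1.79 and 3.14 in HFT animals and 1.28, 1.94 and 3.17 in HF animals, a difference of -0.020 (SE 0.28). HF 8, HFT 28 and HFT 23, the 3 arrays with epididymal markers, were the highest, followed by HF 35. Gstm2, a mu-class enzyme, ranged 0.24, 0.47 and 1.76 in HFT animals and 0.09, 0.48 and 1.22 in HF animals, a difference of 0.16 (SE 0.21). The same 3 arrays were the highest. Gstm1, its close relative, ranged 0.28, 0.53 and 1.55 in HFT animals and 0.13, 0.27 and 1.45 in HF animals, a difference of 0.040 (SE 0.24). HFT 28, HF 9 and HF 8 were the highest, and HF 9 was also the array with the highest smooth muscle marker median, 3.45 log2 units above the median array. Mgst1, the microsomal enzyme that also reduces lipid hydroperoxides, ranged 3.94, 4.61 and 4.99 in HFT animals and 3.24, 4.59 and 5.08 in HF animals, a difference of 0.056 (SE 0.23). Here HF 8 was the lowest, followed by HFT 28, with HFT 23 and HF 9 at 4.20. Gstp1, Gstt1 and Mgst3, of the pi, theta and microsomal classes, differed by 0.025 (SE 0.093), 0.024 (SE 0.11) and 0.038 (SE 0.14).

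The gene of smallest unadjusted p was thioredoxin reductase 1, although its adjusted p was that of every other gene tested. Txnrd1, the cytosolic selenoenzyme that keeps thioredoxin reduced, ranged -1.83, -1.63 and -1.49 in HFT animals and -2.13, -1.79 and -1.60 in HF animals. HFT 26 and HFT 23 lay above every HF animal and HF 35, HF 8, HF 12 and HF 9 were the lowest of all, while the other values of both groups overlapped. The difference was 0.17 (SE 0.081, limma unadjusted p = 0.0550, adjusted p = 0.999994), and all 8 HFT animals were above the HF mean. A two-sided exact permutation test gave p = 0.0440, and by this test 1 of the 36 genes was under 0.05. It was not run over all probes, so that count has no share of all probes beside it. The difference was above 0 on each of the 4 slides, at 0.24, 0.051, 0.21 and 0.17. Its other probe, 1 of lower mean signal, showed 0.086 (SE 0.15). Without the 6 arrays that carried other tissue the difference was 0.11.

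Of the remaining thioredoxin and peroxiredoxin genes, Srxn1, the sulfiredoxin that repairs overoxidised peroxiredoxins and a typical NRF2 target, ranged -1.37, -0.96 and -0.55 in HFT animals and -1.66, -1.30 and -0.84 in HF animals. HFT 24, HFT 26, HFT 25 and HFT 27 lay above every HF animal and HF 8, HF 11, HF 9 and HF 10 lay below every HFT animal. The difference was 0.24 (SE 0.15). The thioredoxins differed by -0.0054 for Txn1 (cytosolic, SE 0.076) and -0.034 for Txn2 (mitochondrial, SE 0.17), and the mitochondrial reductase Txnrd2 by 0.012 (SE 0.11). The peroxiredoxins, thiol peroxidases of the cytosol, mitochondria and endoplasmic reticulum, differed by 0.15 for Prdx1 (SE 0.12), 0.054 for Prdx2 (SE 0.082), -0.081 for Prdx3 (SE 0.19), -0.016 for Prdx4 (SE 0.11), 0.072 for Prdx5 (SE 0.14) and 0.037 for Prdx6 (SE 0.074). Prdx1 had 7 of 8 HFT animals above the HF mean. Prdx2 is abundant in red cells, and the 6 red cell markers tested all had differences above 0 (median 0.32). At a limma unadjusted p under 0.05, 2 of the 6 markers were higher, against 1.13% of all probes. The median of those markers ran from -0.36 to 0.66 in HFT animals and from -0.88 to 0.13 in HF animals, and its part in the Prdx2 values was not tested.

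The superoxide dismutases turn superoxide into hydrogen peroxide, and catalase breaks hydrogen peroxide down. Sod2, the mitochondrial manganese enzyme, ranged 0.33, 0.82 and 0.98 in HFT animals and 0.67, 0.92 and 1.41 in HF animals. HFT 28, HFT 36 and HFT 23 lay below every HF animal and HF 35, HF 11, HF 9 and HF 12 lay above every HFT animal. The difference was -0.21 (SE 0.11, limma unadjusted p = 0.0828, adjusted p = 0.999994), with 7 of 8 HFT animals below the HF mean. A two-sided exact permutation test gave p = 0.0842. On the 4 slides it was -0.046, -0.10, -0.27 and -0.42. Cat, the peroxisomal catalase, ranged -0.20, 0.76 and 1.23 in HFT animals and -0.08, 0.45 and 1.38 in HF animals. HFT 28 was the lowest and HF 13 the highest, and the difference was 0.00025 (SE 0.23). Sod1, the cytosolic copper-zinc enzyme, differed by -0.0020 (SE 0.059) and had the smallest spread of all members over the 16 animals (SD 0.090). Sod3, the extracellular enzyme, differed by -0.069 (SE 0.097).

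For several members the animals that lay apart from the rest were those whose arrays were high for epididymal or urothelial markers. Over the 16 animals the SD of the 36 genes ran from 0.090 for Sod1 to 0.57 for Gsta4, followed by Slc7a11 at 0.50, Gstm1 at 0.49, Mgst1 at 0.47, Cat at 0.46, Gstm2 at 0.44, Gclc at 0.43 and Gpx3 at 0.41. Over the 10 arrays high for neither list the SD was 0.24 for Gsta4, 0.27 for Slc7a11, 0.39 for Gstm1 and 0.29 for Mgst1. It was 0.32 for Cat, 0.25 for Gstm2 and 0.14 for Gclc. For Gpx3 it was 0.39, close to its value over all 16. Of members with a smaller spread, Prdx3 went from 0.39 over all 16 to 0.092 over the 10, and Nfe2l2 from 0.23 to 0.076. Others rose instead, such as Hmox1 from 0.37 to 0.42, Keap1 from 0.19 to 0.21 and Gstp1 from 0.17 to 0.19.

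The 3 arrays with epididymal markers lay above all 10 of the others for Gclc, Gsta4 and Gstm2, which is 8.33% of the 36 genes against 6.38% of all probes. They lay below all 10 for Gpx4, Mgst1, Mgst3, Prdx3 and Prdx5, or 13.9% against 7.1% of all probes. Gsta4 was at 2.68, 3.14 and 3.17 on HFT 23, HFT 28 and HF 8 and at 1.28 to 1.98 on the 10 arrays. Prdx3, the mitochondrial peroxiredoxin, was at 1.39, 1.24 and 0.77 on those 3 arrays and at 1.81 to 2.03 on the 10. The genes on either side are of mixed classes: transferases lie on both. The 3 arrays with urothelial markers lay above all 10 for Gclc and Nfe2l2 (5.56%, against 1.92% of all probes) and below all 10 for 0 of 36 genes, against 0.531% of all probes. Nfe2l2 was at 1.84, 2.06 and 2.09 on HFT 22, HFT 24 and HF 35 and at 1.41 to 1.66 on the 10 arrays. Each of the 2 sets of arrays held 2 HFT animals and 1 HF animal. The brown adipocyte marker median, relative to the median array, was 2.41, 1.07 and 3.29 on HFT 22, HFT 24 and HF 35. It was -2.64 to 1.45 on the 10 arrays. The adipocyte marker median was -0.056, -0.43 and -0.37 on HFT 23, HFT 28 and HF 8, and -0.29 to 0.52 on the 10 arrays. How much of each gene's signal came from other tissue, or went with these fat markers, was not tested.

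**Figure D3:**
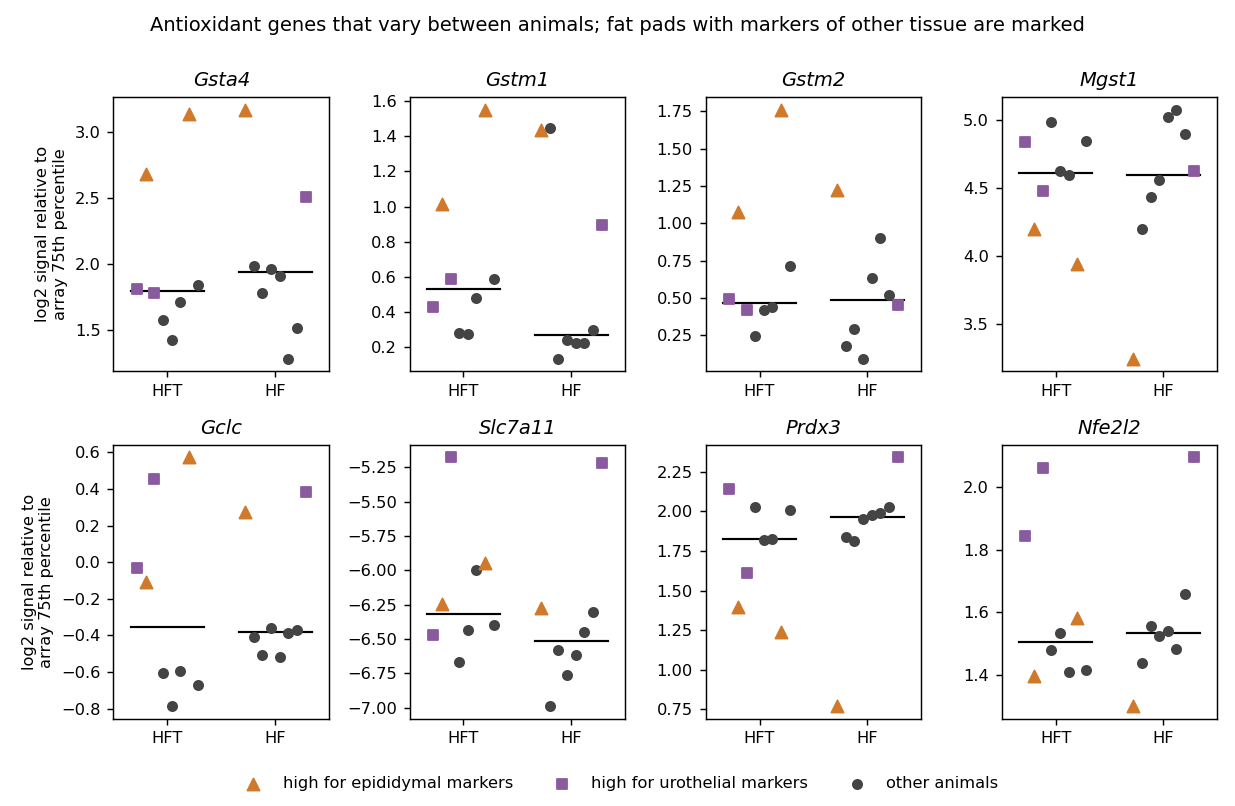
Level of 8 antioxidant genes, 6 of them among those of largest spread, in each animal (log2, relative to the 75th percentile of the array), HFT left and HF right, with the group medians as lines, triangles for arrays high for epididymal markers and squares for arrays high for urothelial markers. For Gsta4 the 3 arrays high for epididymal markers lie at 2.68 to 3.17 and for Gclc the 6 marked arrays lie at -0.11 to 0.57, above the other 10.

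Over the 10 arrays high for neither list, 4 HFT and 6 HF, Gclc and Prdx2 had groups that did not overlap, compared with 1.03% of all probes (224 of 21831). Gclc was at -0.79 to -0.59 in HFT animals and -0.52 to -0.36 in HF animals. The difference was -0.24 (SE 0.073, limma unadjusted p = 0.00827, adjusted p = 0.886). Prdx2 was at 3.76 to 3.92 in HFT animals and 3.60 to 3.74 in HF animals, a difference of 0.15 (SE 0.069, limma unadjusted p = 0.0572, adjusted p = 0.886). Keap1 was lower by a limma difference of -0.26 (SE 0.11, adjusted p = 0.886), with groups that overlapped. At an unadjusted p under 0.05 limma called 2 of the 36 genes, Gclc and Keap1, and 5.52% of all probes. Where only the 4 arrays high over all measured markers were left out (HFT 22, HFT 24, HFT 28 and HF 35), the Gclc difference was -0.23 (SE 0.15, limma unadjusted p = 0.159, adjusted p = 0.999807). That fit called 0 of the 36 genes at a limma unadjusted p under 0.05, and 672 of 21831 probes. The 10 arrays were picked by markers of other tissue and not by these genes, but the comparison was added with the data known, and none of its adjusted p-values passed the threshold.

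The within-slide differences of the antioxidant genes varied from slide to slide, but no gene passed the test of that variation. The number of genes above 0 was 27 of 36 on slide 1, 24 on slide 2, 12 on slide 3 and 16 on slide 4, with medians of 0.23, 0.055, -0.084 and -0.052. Over all probes the medians were -0.041, -0.023, -0.020 and 0.011. Slide 1 held HFT 22, HFT 23 and HF 8, all 3 high for epididymal or urothelial markers. Its other array was HF 9, whose smooth muscle marker median was 3.45 above the median array. Gpx3, Mgst1, Txn2, Prdx1, Prdx4, Nqo1 and Ugdh were above 0 on slides 1 and 2 and below 0 on slides 3 and 4 (19.4% of the 36 genes, against 9.29% of all probes). The opposite pattern occurred in 0 of the 36, against 12.9% of all probes. Gsr, Gstm2 and Txnrd1 were above 0 on all 4 slides (8.33%, against 3.06% of all probes) and Sod2 was below 0 on all 4 (2.78%, against 5.82%). A test of the difference between slides, the group by slide interaction in limma, gave 0 of 36 genes past an adjusted p of 0.05 (smallest 0.843). At an unadjusted p under 0.05 it called 4 genes, Gpx3, Ugdh, Cat and Hmox1, and 4.98% of all probes. The share past the adjusted threshold was 0.00458% of all probes, which is 1 probe.

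**Figure D4:**
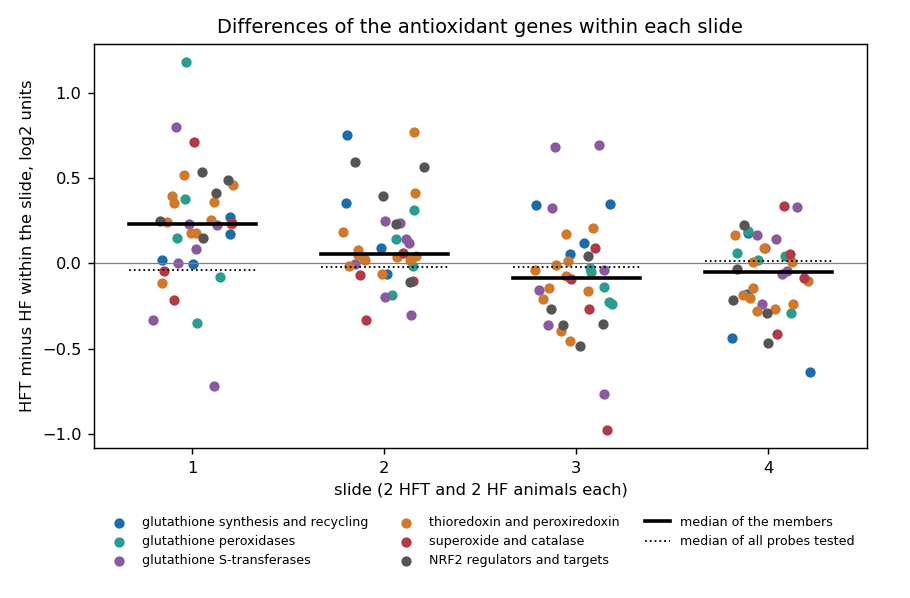
HFT minus HF difference of each of the 36 genes within each of the 4 slides (log2 units, 2 HFT and 2 HF animals per slide), coloured by class, with solid lines for the median of the genes and dotted lines for that of all probes. The median of the genes is 0.23 on slide 1 and -0.084 on slide 3.

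The other genes of the same pathways were taken from a list of 115, of which 105 were tested. Of these, 67 were above 0 and 38 below, the median difference was 0.047, and limma called 0 past the adjusted threshold. At an unadjusted p under 0.05, 1 was higher and 1 was lower, against 1.13% and 1.23% of all probes. Duox1, a dual oxidase that releases hydrogen peroxide, differed by 0.40 (SE 0.16, adjusted p = 0.999994). Idh2, the mitochondrial NADPH-producing isocitrate dehydrogenase, differed by -0.31 (SE 0.12, adjusted p = 0.999994). For Duox1 the difference was above 0 and for Idh2 below 0 on all 4 slides, as for 3.06% and 5.82% of all probes. Both genes were picked by their p over these same arrays, so the slides add no separate evidence.

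By list, the median difference was 0.15 over 10 oxidant source genes, with 9 above 0. Cybb, the catalytic subunit of the phagocyte oxidase, differed by 0.36 (SE 0.20), beside the macrophage markers given above. Nox1, a NADPH oxidase, was well above background on 3 HFT and 7 HF arrays, so it passed the filter through HF animals alone. Its fitted difference of -0.31 (SE 0.19) rests in part on HFT signals not well above background and is not a measured size. Over 32 further glutathione enzymes and transporters 20 were above 0. Gstz1, the zeta-class transferase of tyrosine breakdown, differed by -0.32 (SE 0.18). Gpx5, the epididymal peroxidase, was well above background on only 2 arrays, both with epididymal markers, HFT 28 at -4.52 and HFT 23 at -6.44. The selenoprotein and metal genes had 10 of 16 above 0. Selenop, the selenium carrier of plasma, differed by 0.15 (SE 0.086) and Selenos, of the endoplasmic reticulum, by 0.14 (SE 0.072). The metallothioneins, metal-binding stress proteins, differed by -0.58 for Mt1 (SE 0.36) and -0.41 for Mt2A (SE 0.32). Both were highest on HF 8, an array high for epididymal markers, where the median of the immediate early genes was 1.84 above the median array. All 7 immediate early genes measured had differences below 0. At a limma unadjusted p under 0.05, 5 of the 7 were lower, against 1.23% of all probes. The median of the 7 ran from -1.48 to 0.15 in HFT animals and from -1.37 to 1.84 in HF animals. Its part in the metallothionein values was not tested. In NADPH supply 5 of 10 were above 0, with a median of -0.026. Of 12 thioredoxin-fold and repair genes 9 were above 0, and Txnip, an inhibitor of thioredoxin, differed by 0.014 (SE 0.15). Of 25 partners and targets of NRF2 14 were above 0, with a median of 0.023.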

How the data were processed

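Expression was measured in EWAT of 8 HFT and 8 HF animals on 1-colour Agilent arrays. Per the labels, total RNA was labelled with Cy3 (One Color Low Input Quick Amp). The deposited intensities of the spots came from Agilent Feature Extraction 10.7.3.1, which subtracts background and detrends but does not normalize between arrays, per the file headers and the submitters' processing notes. Marks for spots well above background, not uniform or far from their replicate spots are also from that software, per the file headers. A second deposited file holds the authors' log2 values (normalization not given in the sources used here) and was an alternative. Its 16 column medians lay between 7.33 and 7.36.

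Processed intensities were taken to log2 and the 75th percentile of the array's non-control spots was subtracted. Non-uniform spots and replicate outliers were dropped, and spots of a probe averaged. Of 30367 probes, 23 had no spot left on an array. A probe was kept (21831 were) if it was well above background on 4 or more of the 8 arrays in either group. Groups were compared with limma 3.58.1 (lmFit, eBayes) in R 4.3.3 with no covariate, Benjamini-Hochberg adjustment over all kept probes and a threshold of 0.05. The R package data.table (version 1.17.8) read the files, and promoters searched in Python 3.11.15 with pandas 2.3.3. Single genes were also given two-sided exact permutation tests over 12870 assignments (smallest p 0.000155). Probes were named by RefSeq accession against rat genes of GRCr8, so 18005 probes have a symbol. The array's own annotation is rn4 and no coordinates of it are given. The fit was tested on simulated data (5 runs, 200 changed probes each), with a mean of 7.8 false calls.

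An array was high for a tissue where the median of that list's markers that passed the filter was more than 3 log2 units above the median array. The use of only passing markers, and the 4 fits that rest on it, were added after seeing the data, because the score over all measured epididymal markers gave HFT 28 alone. A fit by that score and the interaction test were also added. The members and all lists were chosen with earlier results of these data known. All members were named. Lowest, median and highest values are given for members of unadjusted p under 0.05, for the 8 of largest SD, for the largest difference in each class and for Nfe2l2, Keap1, Nqo1, Hmox1, Gclc, Txnrd1, Sod2, Cat and Gpx3. From the wider pathway list the 4 of smallest p in each direction are named, and Txnip, Selenop, Mt1, Mt2A, Cybb and Gpx5 whatever their values; 1 further gene of the rule is not reported here. Of the other marker lists, differences were above 0 for 11 of 11 liver, 3 of 3 T cell, 4 of 9 adipocyte and 1 of 4 skeletal muscle genes, and for 0 of 8 smooth muscle, 0 of 5 brown adipocyte and 0 of 6 endothelial genes. Alternatives were other background corrections and scalings, the deposited log2 table, other filters, a slide block, array weights, a mean over a gene's probes, and leaving out each array; normexp used an offset of 50. A planned check of selenocysteine in the proteins was not run.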

Additional observations from a re-analysis of the deposited data

Results flagged for a closer look

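Of 72 groups of 8 animals examined (36 genes in 2 groups), 5 held an animal that stood apart from the other 7 of its group by Dixon's test, and chance alone flags about 1 in 20 groups. Slc7a11 was at -5.22 in HF 35, against -6.27 in the next highest HF animal. Nfe2l2 was at 2.09 in HF 35, the next highest HF animal being at 1.66. HF 35 was one of the arrays high for urothelial markers. Prdx3 was at 0.77 in HF 8, against 1.81 in the next lowest HF animal, and Prdx5 was at 3.16 in the same HF 8, against 3.74. HF 8 was one of the arrays high for epididymal markers. Prdx4 was at 0.045 in HFT 24, against 0.39 in the next lowest HFT animal. HFT 24 was one of the arrays high for urothelial markers.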

How the results depend on the processing

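Over 29 alternative fits, of which 16 left out 1 array each, limma called 0 of the antioxidant genes past the adjusted threshold. Over all probes the count was 0 in all but 1 of these fits. The exception, without the arrays high for epididymal markers (6 HFT and 7 HF), called 1 probe, that of the acyl-CoA thioesterase gene Acot5 (-4.38, limma adjusted p = 0.0132), named after its value was seen. Leaving out 1 array gave counts between 0 and 0. At an unadjusted p under 0.05 the members called numbered 0 to 3: Txnrd1 in 8 fits, Gpx1, Sod2 and Keap1 in 2 each and Gclc in 1. The probes so called numbered 514, but 1206 without the arrays high for either list and 982 with both scores as covariates. The median difference of the members ran from -0.0078 (without HF 8) to 0.079 (without the 4 arrays high over all measured markers). Gclc ran from -0.24 to 0.10 and changed sign in 16 of 30 alternatives, Txnrd1 kept its direction at 0.11 to 0.20 and Sod2 at -0.25 to -0.13. Gpx3 ran from 0.038, without the arrays high for either list, to 0.32. Another scaling moved the median of all probes by at most 0.0088. No paired analysis was possible because the groups share no replicate numbers; the slide block was used instead. With 8 arrays a group, changes smaller than the intervals given for each gene cannot be seen, and Gclm, never well above background, was not measured.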
